A study of Mus musculus with 6 samples.

Results

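Plasminogen is a circulating zymogen that tissue-type and urokinase-type activators cleave to plasmin, a serine protease that dissolves fibrin, degrades matrix glycoproteins and activates several matrix metalloproteinases. Serpins end the reaction by trapping the activators in covalent complexes, while a membrane receptor for urokinase and the complex of annexin A2 with S100A10 hold activators and plasminogen at the cell surface. In skin the system clears provisional fibrin matrix during repair, and fibroblasts make many of its parts. Expression of 8 genes of this system was followed in mouse dermal fibroblasts: the activators Plat and Plau, the urokinase receptor Plaur, tissue factor F3, the serpins Serpine2 and Serpinb2, and the surface pair Anxa2 and S100a10. They were taken by gene symbol from a list and make up 8 of the 23407 genes in the table. All 8 were present and all 8 passed the filter of a mean of at least 10 normalised reads. Plaur, F3, Anxa2 and S100a10 are neither activators nor serpins.

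The libraries came from 3 TSP2KO and 3 WT samples of primary fibroblasts from the back skin of mice aged 12 weeks, cultured for 3 to 5 days in high-glucose medium with fetal bovine serum and taken for RNA at passage 1. TSP2KO stands for the loss of thrombospondin-2, encoded by Thbs2. Strain, construct and any pooling of animals remain not given in the sources used here. As no label ties each library to an animal of its own, p-values cover just the differences among these 6 libraries, and part of those differences may be technical.

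Values are normalised reads per gene, and estimated depth ran from 14776502 to 34599855 reads per library. Thbs2 had 5177, 6635 and 4891 normalised reads in TSP2KO 1, 2 and 3, against 122061, 116720 and 8841 in WT 1, WT 2 and the library labelled WT 3. That last library goes against its label in Thbs2, so log2 fold changes and list medians are given below with all 6 libraries and without it, and its own value is printed beside those of WT 1 and WT 2. All 9 fibroblast markers, collagen genes, Dcn and Pdgfra among them, were above 0 in all 6 libraries, with summed levels of 165125 to 263092 in TSP2KO and 203923 to 389817 in WT. Keratinocyte markers summed to 17995, 14821 and 652 normalised reads in TSP2KO 1, 2 and 3, against 1846, 616 and 51979 in WT 1, WT 2 and the library labelled WT 3. Macrophage markers summed to 644 to 785 in TSP2KO and 2797 to 5631 in WT. In bulk RNA, fewer cells of a type and less RNA per cell cannot be told apart.

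Upstream sequences were looked up for the members, and 5 of the 8 matched a RefSeq window on GRCm38.p6 of 250 bases before to 50 bases after the start: Serpine2, Serpinb2, F3, Plaur and Anxa2. The motif TGANTCA, the core bound by AP-1 factors, reads the same on both strands apart from its N, and was found in windows of 4 of the 5, all but Serpine2. It occurs in 7.81% of the 32851 windows of that length in the table. Any link between this motif and the level of a gene in any library was not tested. For the 4 genes with TGANTCA, the 160 bases that end just before the earlier of the RefSeq and GENCODE starts are given. All are on the plus strand, and capitals mark TGANTCA and, on either strand, TATAAA; the marked motifs do not overlap.
Plaur, chr7:24462323-24462482: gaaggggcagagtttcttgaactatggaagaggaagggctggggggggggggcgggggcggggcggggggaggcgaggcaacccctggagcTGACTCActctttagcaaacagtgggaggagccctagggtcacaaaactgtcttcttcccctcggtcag
Anxa2, chr9:69453460-69453619: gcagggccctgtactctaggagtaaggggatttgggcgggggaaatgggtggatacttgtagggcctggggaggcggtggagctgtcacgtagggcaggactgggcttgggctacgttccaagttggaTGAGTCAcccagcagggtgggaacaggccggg
Serpinb2, chr1:107511263-107511422: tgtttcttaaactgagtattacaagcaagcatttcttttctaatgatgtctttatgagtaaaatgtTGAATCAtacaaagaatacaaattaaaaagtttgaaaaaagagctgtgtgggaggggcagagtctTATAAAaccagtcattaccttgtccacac
F3, chr3:121723377-121723536: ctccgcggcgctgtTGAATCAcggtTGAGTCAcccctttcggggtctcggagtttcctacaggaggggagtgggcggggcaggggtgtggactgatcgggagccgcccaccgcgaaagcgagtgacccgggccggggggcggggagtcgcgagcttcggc
Counted from the RefSeq start, the motif began at -69 in Plaur, at -95 in Anxa2, at -94 in Serpinb2, and at -146 and -135 in F3. TATAAA was found in windows of 3 of the 5, beginning at -29 in Serpinb2, at -17 in Anxa2 and, on the other strand, at 44 in F3 (the matches of Anxa2 and F3 lie outside the bases shown). It occurs in 13.6% of all windows. GGGCGG, found on either strand in 35.7% of windows, was in those of 4 of the 5, all but Serpinb2, and at 6 positions between -161 and -13 in Serpine2. A match describes letters and is not a measured binding site.

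The comparison of TSP2KO with WT asked how each gene of the system differed in cells labelled as lacking thrombospondin-2. None of the 8 members passed a Benjamini-Hochberg adjusted p under 0.05 in limma over the 14707 genes tested, where 9 genes did, or 0.0612% of those tested. At an unadjusted p under 0.05, 538 genes were higher and 896 lower, and Plat was the member among them. Of the 8, 6 had a mean log2 value above that of WT and 2, Plat and F3, below it. Of all 14707 tested genes, 7128 had a mean log2 value above that of WT. Plau and Serpinb2, among the 6, had lower means of normalised reads in TSP2KO, at 17.6 against 18.9 and 251 against 769. The median log2 fold change of the members was 0.59, against -0.01 for all tested genes. With the library labelled WT 3 left out, 5.17% of tested genes passed. Plat alone of the 8 members then passed, as lower in TSP2KO, where 2.75% of tested genes passed as lower. No member passed as higher there, where 2.43% of tested genes did, and the members' median was 0.92 against -0.03 for all tested genes.

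**Figure D1:**
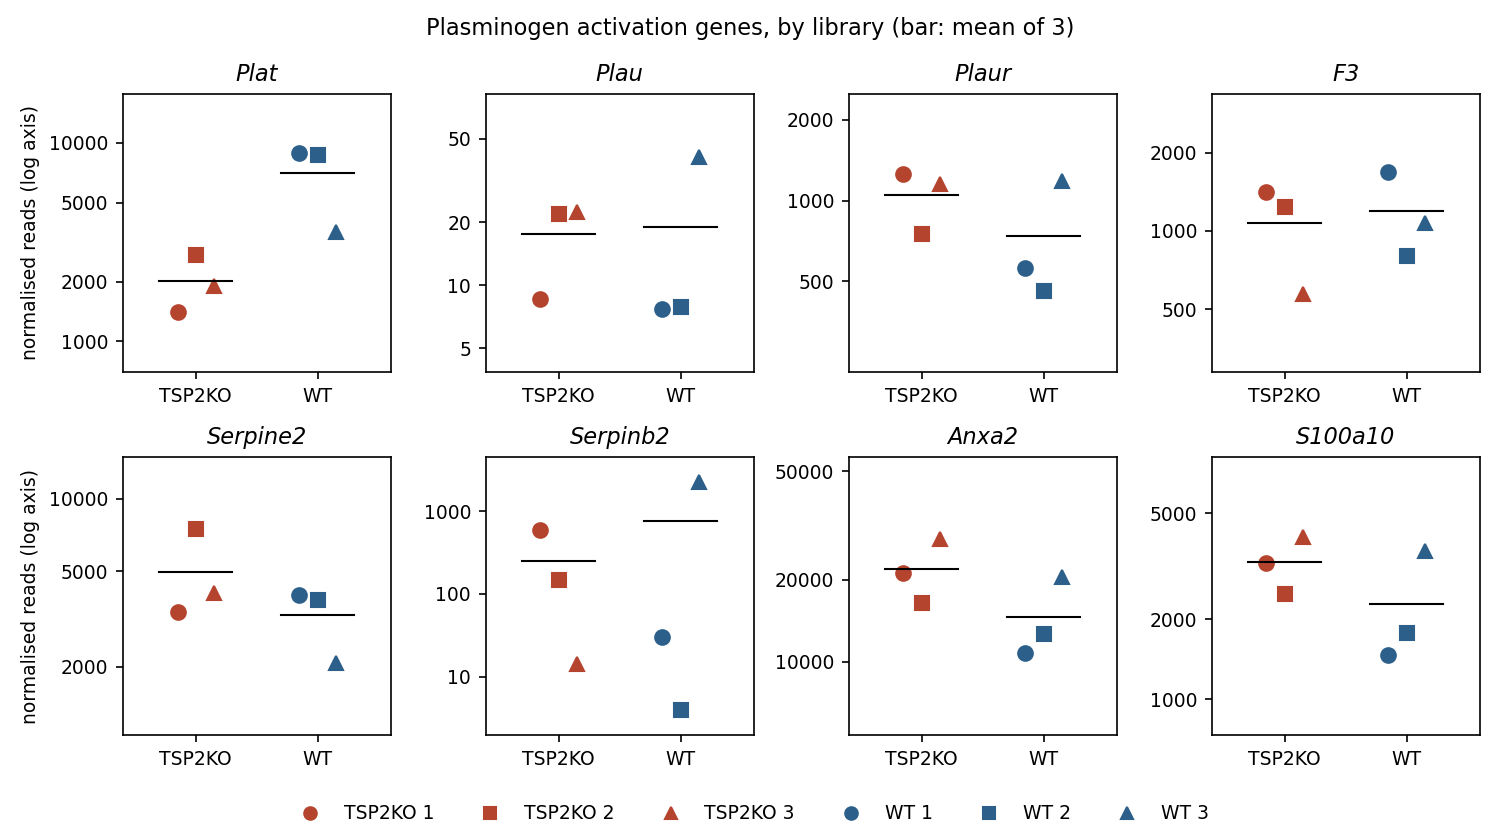
Normalised reads of each gene (log axis) in the 3 TSP2KO libraries (left, red) and the 3 WT libraries (right, blue), with a bar at each mean. Plat alone shows no overlap between the groups, and the library labelled WT 3 (blue triangle) lies away from WT 1 and WT 2 for every gene except F3.

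The tissue-type activator showed the clearest difference. Plat (chromosome 8, 22757727 to 22782844, plus strand, mm10) had 1398, 2736 and 1894 normalised reads in TSP2KO 1, 2 and 3, against 8884, 8699 and 3564 in WT 1, WT 2 and the library labelled WT 3. All 3 TSP2KO libraries lay below all 3 WT libraries, as they did for 8.27% of tested genes. No member lay above all 3 WT libraries in all 3 TSP2KO libraries, as 5.9% of tested genes did. The mean was 2009 ± 676 in TSP2KO and 7049 ± 3019 in WT (SD, n = 3 each). On the log2 scale of the fit the change was -1.75 (SE 0.41, limma adjusted p = 0.214), or 3.36-fold lower in TSP2KO. This missed the threshold, and with the library labelled WT 3 left out Plat passed, at -2.18 (SE 0.28, limma adjusted p = 0.0168). In normalised reads, Plat in that library was 1.77 times the mean of the TSP2KO libraries, and the mean of WT 1 and WT 2 was 2.47 times Plat in that library.

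Macrophage markers, like Plat, were lower in the TSP2KO libraries, while most contractile smooth muscle markers were at higher values there. Of the 12 macrophage markers all were listed in the table, and all 11 that were tested were lower in TSP2KO, 2 of them past the threshold, and 9 of them with the library labelled WT 3 left out, where 2.75% of all tested genes passed as lower. Fcgr1, an Fc receptor of macrophages, was at 0 in all 3 TSP2KO libraries, against 1.28 to 7.06 normalised reads in WT. Of the 9 fibroblast markers 7 had negative log2 fold changes and none passed the threshold, though Pdgfra passed as lower without the library labelled WT 3. Of these markers, the matrix proteoglycan genes Dcn and Lum and the growth factor receptor Pdgfra did not overlap between the groups. Each was lower in TSP2KO, and 8.27% of all tested genes lay lower there without overlap. Dcn had 12200, 11094 and 2368 normalised reads in TSP2KO, against 50984, 55417 and 38394 in WT. Contractile smooth muscle markers went the other way, with 5 of 6 at positive log2 fold changes and none past the threshold. Of the 6, 4 lay higher without overlap, as did 5.9% of tested genes. The median of these markers was 2.52, and 2.77 without the library labelled WT 3. Their summed levels were 68962, 70703 and 156362 in TSP2KO 1, 2 and 3, against 14667, 12481 and 22965 in WT 1, WT 2 and the library labelled WT 3. With that library left out, 3 of them passed as higher, where 2.43% of tested genes did: Acta2, smooth muscle actin, Tagln and Actg2. The part of these cells in the Plat difference was not tested.

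**Figure D2:**
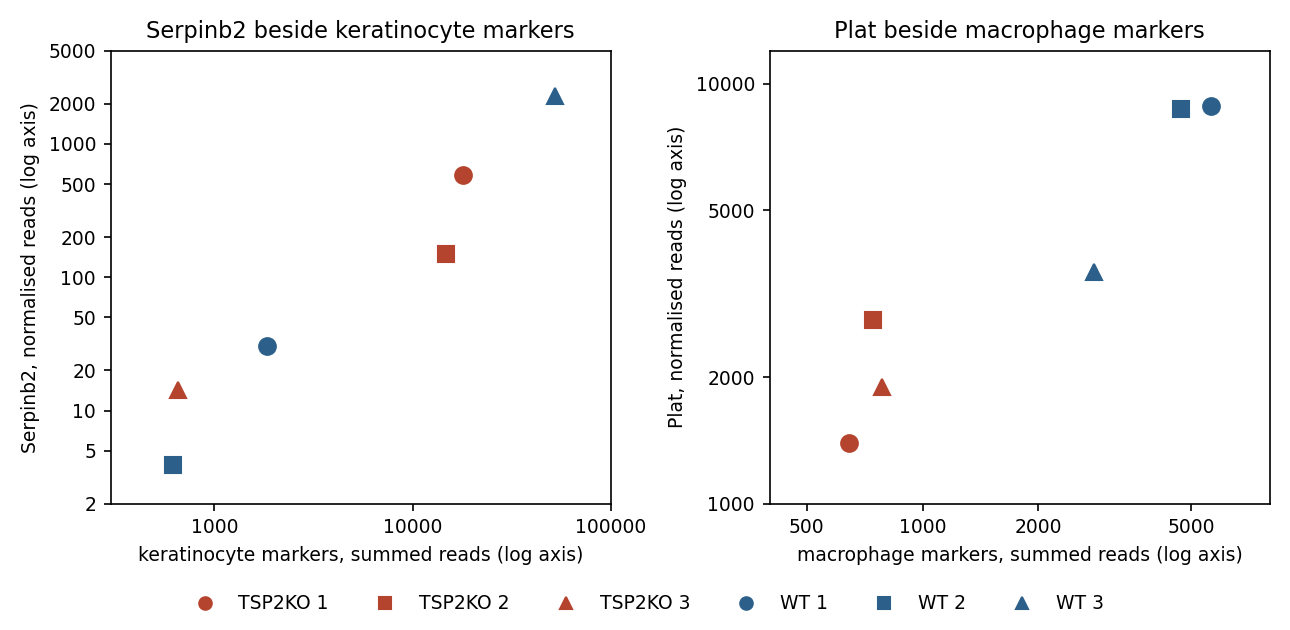
Left, Serpinb2 against the summed keratinocyte markers, and right, Plat against the summed macrophage markers, both axes in normalised reads on a log scale, with 1 point per library and TSP2KO in red and WT in blue. The libraries stand in the same order for Serpinb2 as for summed keratinocyte markers, an order that summed endothelial markers share. Plat and summed macrophage markers are both lower in every TSP2KO library than in every WT library.

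The urokinase-type activator was scarce in every library. Plau (chromosome 14, 20836660 to 20843385, plus strand) had 8.62, 21.8 and 22.3 normalised reads in TSP2KO 1, 2 and 3, against 7.73, 7.85 and 41.1 in WT 1, WT 2 and the library labelled WT 3. These rest on 15, 39 and 25 reads in TSP2KO and on 15, 20 and 64 reads in WT, all whole within 0.02 of a read. The 95% exact Poisson interval was 31.6 to 52.4 normalised reads in the library labelled WT 3 and 4.79 to 12.1 in WT 2, so these WT libraries differed by more than counting error, which is all that these intervals cover. The groups overlapped, and the log2 fold change was 0.22 (SE 0.74, limma adjusted p = 0.958) with all libraries and 0.97 (SE 0.58, adjusted p = 0.354) without the library labelled WT 3. Its sign turned without WT 1 or WT 2, so the data give Plau no direction between the groups.

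The urokinase receptor was well measured and split the libraries in another way. Plaur (chromosome 7, 24462484 to 24475968, plus strand) encodes the lipid-anchored surface protein that binds urokinase. It had 1255, 748 and 1155 normalised reads in TSP2KO 1, 2 and 3, against 560, 459 and 1187 in WT 1, WT 2 and the library labelled WT 3. All 3 TSP2KO libraries lay above WT 1 and WT 2, while the library labelled WT 3 lay within the TSP2KO range. The mean was 1053 ± 269 in TSP2KO and 735 ± 394 in WT (SD, n = 3 each), with a log2 fold change of 0.61 (SE 0.38, limma adjusted p = 0.693). From the other 5 libraries, with the library labelled WT 3 left out, the estimate was 1.02 (SE 0.26, adjusted p = 0.0701), also short of the threshold.

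The surface pair, like Plaur, was lowest in WT 1 and WT 2. Anxa2 (chromosome 9, 69453620 to 69491795, plus strand) encodes annexin A2, a calcium-dependent membrane binder that docks tissue-type activator and plasminogen. It had 21201, 16481 and 28305 normalised reads in TSP2KO 1, 2 and 3, against 10766, 12670 and 20536 in WT 1, WT 2 and the library labelled WT 3. S100a10 (chromosome 3, 93555080 to 93564643, plus strand), the S100 protein that binds plasminogen and is held stable by annexin A2, had 3264, 2479 and 4068 in TSP2KO, against 1468, 1772 and 3614 in WT. For both genes every TSP2KO library lay above WT 1 and WT 2, and the library labelled WT 3 lay inside the TSP2KO range. Anxa2 had a log2 fold change of 0.61 (SE 0.31, limma adjusted p = 0.618), and 0.88 (SE 0.27, adjusted p = 0.105) without the library labelled WT 3. For S100a10 the corresponding values were 0.60 (SE 0.36, adjusted p = 0.679) and 0.99 (SE 0.24, adjusted p = 0.0633).

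In all, 4 of the 8 members, Plau, Plaur, Anxa2 and S100a10, lay above WT 1 and WT 2 in all 3 TSP2KO libraries, as did 21.1% of tested genes. Plat alone lay below both in all 3, as did 22.3% of tested genes. The library labelled WT 3 lay above both WT 1 and WT 2 for 5 members, these 4 and Serpinb2. The share of all tested genes with that order was not computed, so nothing is read from this count. The level of Anxa2 is less certain, since an antisense gene overlaps it and how strand entered the counting remains not given in the sources used here.

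Serpinb2 varied most among the members, and its values overlapped between the groups. It encodes plasminogen activator inhibitor 2, a largely intracellular serpin made by keratinocytes and activated macrophages. Serpinb2 (chromosome 1, 107511423 to 107535478, plus strand) had 589, 148 and 14.2 normalised reads in TSP2KO 1, 2 and 3, against 30.4, 3.92 and 2273 in WT 1, WT 2 and the library labelled WT 3. The library labelled WT 3 held 132-fold more than the mean of WT 1 and WT 2, and the log2 values spanned 8.85 over the 6 libraries. The log2 fold change was 0.65 (SE 2.27, limma adjusted p = 0.959), and 3.15 (SE 1.48, adjusted p = 0.249) without the library labelled WT 3. Without WT 2 it turned to -1.28, and without TSP2KO 1 to -0.56. In WT 2 the value rested on 10 reads, and a gene of the same cluster, Serpinb10, overlaps Serpinb2 on the same strand in GENCODE M21.

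The libraries ranked for Serpinb2 exactly as they did for the summed keratinocyte markers, with the library labelled WT 3 highest, then TSP2KO 1, TSP2KO 2, WT 1, TSP2KO 3 and WT 2. Single markers did not all keep this order. Krt5, Trp63 and Perp were higher in TSP2KO 2 than in TSP2KO 1, and Sfn and Perp higher in TSP2KO 3 than in WT 1. Krt10 lay between 17.5 and 38.6 normalised reads in all libraries. Summed endothelial markers gave the same order as the keratinocyte sum, at 2143, 2018 and 535 normalised reads in TSP2KO 1, 2 and 3, against 1246, 515 and 4995 in WT 1, WT 2 and the library labelled WT 3. Among these markers Tie1, Cdh5 and Emcn did not keep that order. Summed melanocyte markers shared the top 3 libraries, with 591 and 224 in TSP2KO 1 and 2, against 1135 in the library labelled WT 3. Among these markers Mlana went another way, highest in WT 2 at 107 normalised reads, against 36.6 in the library labelled WT 3. Krt14, a keratin of basal keratinocytes, had 5061, 4727 and 157 normalised reads in TSP2KO 1, 2 and 3, against 553, 180 and 15525 in WT 1, WT 2 and the library labelled WT 3. All 12 keratinocyte markers were listed and 9 were tested, 8 of them with a positive log2 fold change and none past the threshold, with a median of 0.52, and 2.36 without the library labelled WT 3. Krt1, of differentiated layers, and Krt15 did not exceed 3.21 normalised reads in any library, and Epcam was at 0 in TSP2KO 3. The part of keratinocytes, endothelial cells or melanocytes in these values was not tested.

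Serpine2 encodes protease nexin 1, a secreted serpin that inhibits thrombin, urokinase and tissue-type activator. Serpine2 (chromosome 1, 79794197 to 79861180, minus strand) had 3395, 7466 and 4034 normalised reads in TSP2KO 1, 2 and 3, against 3969, 3793 and 2077 in WT 1, WT 2 and the library labelled WT 3. TSP2KO 2 was the highest library and the library labelled WT 3 the lowest, and the groups overlapped. The mean was 4965 ± 2189 in TSP2KO and 3280 ± 1046 in WT (SD, n = 3 each), with a log2 fold change of 0.57 (SE 0.37, limma adjusted p = 0.698), and 0.27 (SE 0.33, adjusted p = 0.667) from the 5 libraries other than the one labelled WT 3.

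F3 encodes tissue factor, the membrane receptor for factor VII that starts coagulation and so the making of fibrin, the substrate of plasmin. F3 (chromosome 3, 121723537 to 121735048, plus strand) had 1417, 1231 and 575 normalised reads in TSP2KO 1, 2 and 3, against 1686, 805 and 1076 in WT 1, WT 2 and the library labelled WT 3. The groups overlapped widely, and the library labelled WT 3 lay between WT 1 and WT 2. The mean was 1075 ± 442 in TSP2KO and 1189 ± 451 in WT (SD, n = 3 each), with a log2 fold change of -0.18 (SE 0.40, limma adjusted p = 0.925), and -0.22 (SE 0.46, adjusted p = 0.808) without the library labelled WT 3. The sign turned to 0.22 without TSP2KO 3 and to 0.11 without WT 1.

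**Figure D3:**
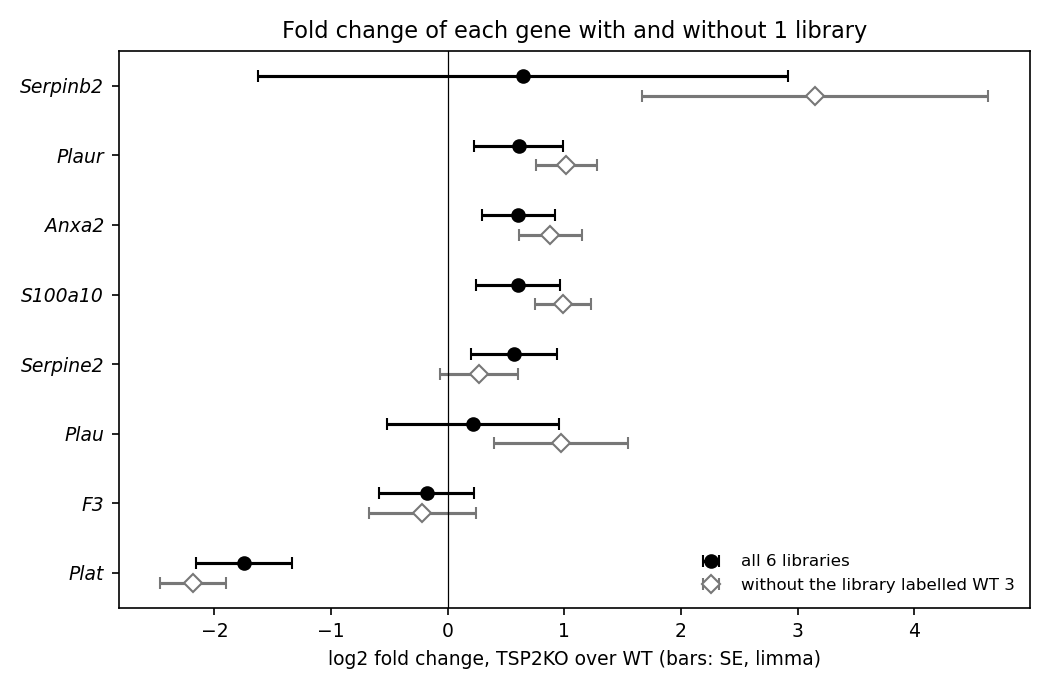
Log2 fold change of TSP2KO over WT for each gene with its SE from limma, with all 6 libraries (black) and without the library labelled WT 3 (grey diamonds). Plat lies at -1.75 and -2.18, while Plaur, Anxa2 and S100a10 lie between 0.60 and 0.61 with all libraries and between 0.88 and 1.02 without that library.

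The members differed widely in level per length. On a scale of normalised reads per kilobase of annotated exon, Anxa2 stood highest, with 5895 ± 1595 in TSP2KO and 3928 ± 1388 in WT (SD, n = 3 each), and S100a10 next, with 2698 ± 655 in TSP2KO and 1885 ± 958 in WT. In TSP2KO these were followed by Serpine2 at 599 ± 264, F3 at 425 ± 175, Plaur at 402 ± 103, Plat at 322 ± 108 and Serpinb2 at 107 ± 128. In WT they were followed by Plat at 1129 ± 484, F3 at 470 ± 179, Serpine2 at 396 ± 126, Serpinb2 at 327 ± 554 and Plaur at 281 ± 151. Ranges of mean ± SD overlapped between neighbours in TSP2KO from Serpine2 to Serpinb2, and in WT from Anxa2 to Plaur. Overlap of these ranges does not show equal levels, as Anxa2 exceeded S100a10 per kilobase in all 6 libraries. By its mean Plat stood next to S100a10 in WT and below 5 of the other members in TSP2KO. Serpinb2 owed its mean in WT to the library labelled WT 3, being at 12.9 and 1.67 in WT 1 and WT 2. Plau had the lowest mean in both groups, at 7.42 ± 3.27 in TSP2KO and 7.97 ± 8.12 in WT, so tissue-type activator was the more abundant activator transcript in all 6 libraries.

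Ratios between genes of the same library were taken after adding 1 to each value, which bears on the ratios of Plau, a gene of few reads, more than on those of abundant genes. Of the 6 pairs examined, Plat to Serpine2 was the one whose groups did not overlap with all 6 libraries. The log2 ratio of Plat to Serpine2 in normalised reads was -1.28, -1.45 and -1.09 in TSP2KO 1, 2 and 3, against 1.16, 1.20 and 0.78 in WT 1, WT 2 and the library labelled WT 3. Reads of Serpine2 exceeded those of Plat in every TSP2KO library, and the reverse held in every WT library. The mean was -1.27 ± 0.18 in TSP2KO and 1.05 ± 0.23 in WT (SD, n = 3 each), a difference of -2.32, or 4.99-fold. Leaving out each library in turn gave -2.45 to -2.23, with -2.45 without the library labelled WT 3. As these genes were chosen with earlier results known, no test is given for the ratios.

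The ratio of Anxa2 to S100a10 was nearly the same everywhere, at 2.74 ± 0.05 in TSP2KO and 2.74 ± 0.20 in WT on the log2 scale (SD, n = 3 each), although each gene spanned at least 1.39 log2 units across the libraries. The range of this ratio over all 6 libraries was 0.37, the lowest value being 2.51 in the library labelled WT 3. The log2 ratio of Plau to Plat was -7.18, -6.91 and -6.35 in TSP2KO 1, 2 and 3, against -9.99, -9.94 and -6.41 in WT 1, WT 2 and the library labelled WT 3, where it lay inside the TSP2KO range. The difference was 1.97, and 3.15 without the library labelled WT 3, then wider than that of Plat to Serpine2. Plau to Plaur, Plau to Serpine2 and Plau to Serpinb2 overlapped between the groups, with differences of -0.39, -0.35 and -0.43, smaller than the spread within a group. The differences for Plau to Plaur and Plau to Serpinb2 turned to 0.17 and 1.20 without TSP2KO 1, and the latter also turned positive without WT 2. The difference for Plau to Serpine2 turned to 0.70 without the library labelled WT 3. Without that library the differences for Plau to Plaur, Plau to Serpinb2 and Anxa2 to S100a10 were -0.05, -2.18 and -0.11.

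**Figure D4:**
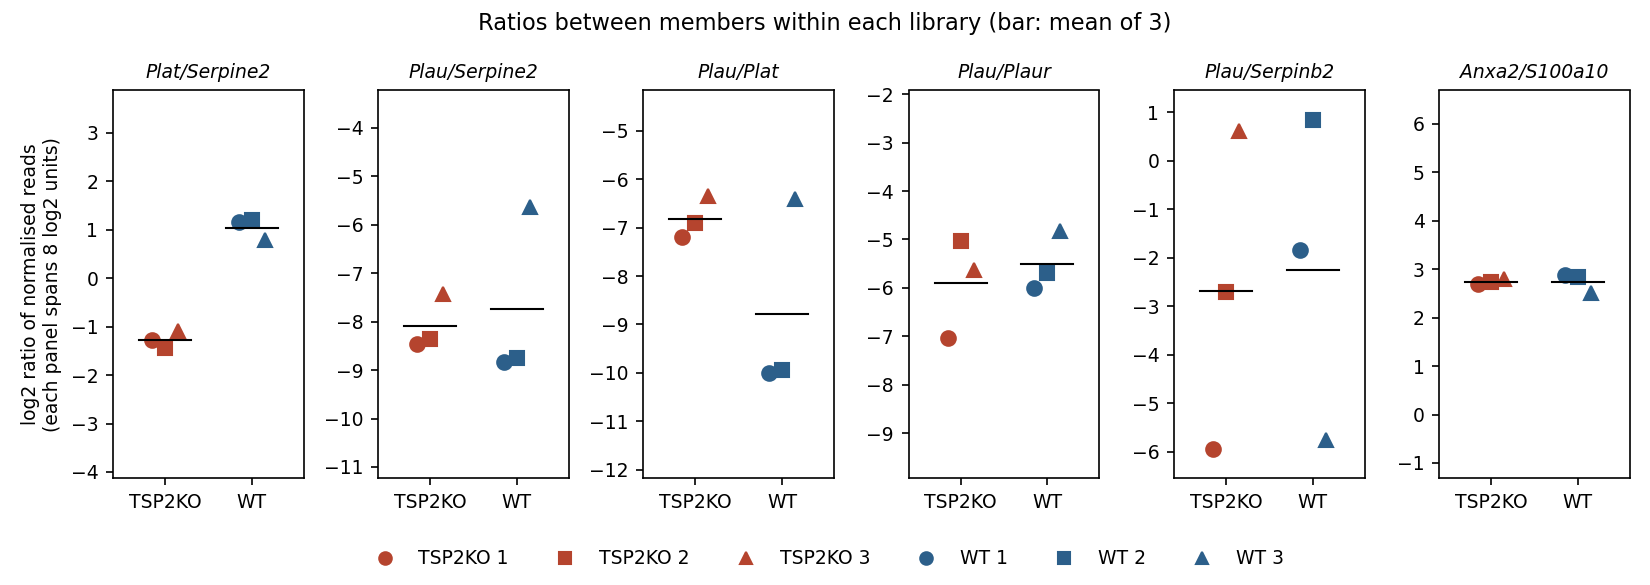
Log2 ratio of normalised reads between pairs of members in each library, with TSP2KO on the left (red), WT on the right (blue) and a bar at each mean; every panel spans 8 log2 units. Plat to Serpine2 separates the groups, and Anxa2 to S100a10 stays within 0.37 over all 6 libraries.

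For the 3 members whose log2 values spanned more than 2, the genes most alike over the 6 libraries were sought by the root mean square difference of centred log2 values. Nearest to Plat were Casp12, an inflammatory caspase, at 0.19, and C1s1, a serine protease of the complement pathway, at 0.21. Casp12 had 267, 489 and 422 normalised reads in TSP2KO 1, 2 and 3, against 1834, 2173 and 608 in WT 1, WT 2 and the library labelled WT 3. C1s1 had 711, 1520 and 1056 in TSP2KO, against 5523, 5572 and 2878 in WT, and may share reads with the close copy C1s2. Nearest to Serpinb2 were Plet1 and Ly6g6c, both at 0.47, and nearest to Plau were Slc4a11, a membrane transporter, at 0.36 and Slc2a6, a sugar transporter, at 0.44. With so many genes and 6 libraries, some close matches must occur, and nothing is read from them.

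Among other serpins and protease inhibitors, 14 of 23 listed genes were tested, 7 higher and 7 lower and none past the threshold, with a median log2 fold change of -0.13, which turned to 0.17 without the library labelled WT 3. Serpini1, neuroserpin, an inhibitor of tissue-type activator known from neurons, had 40.8, 39.2 and 17.8 normalised reads in TSP2KO 1, 2 and 3, against 98.9, 68.6 and 98.8 in WT (log2 fold change -1.49, SE 0.39, limma adjusted p = 0.263), and -1.40 (adjusted p = 0.113) without the library labelled WT 3. Serping1, the C1 inhibitor, had 2165, 3076 and 2148 in TSP2KO, against 11666, 8819 and 5440 in WT, with no overlap, as was also seen for Serpini1, Serpinb6b and Serpinb9. These 4 were named for their small p, and 8.27% of all tested genes lay lower in TSP2KO without overlap. Serpinb6b belongs to a family of close copies and is uncertain. In the fit of the 5 libraries other than the one labelled WT 3, Serping1 passed as lower (log2 fold change -2.06, limma adjusted p = 0.0138).

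Of 15 genes for plasminogen, its other receptors and upstream proteases, 10 were tested, 5 higher and 5 lower and none past the threshold, with a median of -0.04, which turned to 0.08 without the library labelled WT 3. Cathepsins B and L, lysosomal proteases, were lower in all 3 TSP2KO libraries than in any WT library. The same held for 8.27% of all tested genes. Ctsb had 39810, 43809 and 18027 normalised reads in TSP2KO, against 56042, 60618 and 46452 in WT (log2 fold change -0.78, SE 0.37, limma adjusted p = 0.563), and Ctsl a log2 fold change of -0.45 (SE 0.20, adjusted p = 0.519). Without the library labelled WT 3 these were -0.88 and -0.48 (adjusted p = 0.234 and 0.230). Plgrkt, the plasminogen receptor with a C-terminal lysine, and Hmgb1 overlapped between the groups, with log2 fold changes of 0.22 and -0.30, and 0.17 and -0.02 without that library.

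Of 19 genes for the binding, uptake and partners of urokinase and its receptor, 15 were tested, 5 higher and 10 lower and none past the threshold, with a median of -0.12, and -0.19 without the library labelled WT 3. Egfr, a receptor tyrosine kinase that signals with the urokinase receptor, had 1266, 1438 and 938 normalised reads in TSP2KO 1, 2 and 3, against 3082, 3434 and 2683 in WT (log2 fold change -1.35, SE 0.21, limma adjusted p = 0.110). Igf2r, which binds the urokinase receptor and carries ligands to lysosomes, and Itgam, an integrin chain of myeloid cells and a receptor partner, had log2 fold changes of -0.85 and -2.58, and Itgam is also among the macrophage markers above. Cav1, of caveolae, had 27511, 28470 and 37260 normalised reads in TSP2KO, against 9346, 9081 and 23707 in WT (log2 fold change 1.29, SE 0.39, adjusted p = 0.329). With the library labelled WT 3 left out, Egfr, Igf2r and Itgam passed as lower and Cav1 as higher, with log2 fold changes of -1.44, -1.13, -3.02 and 1.74 and adjusted p of 0.0207, 0.0307, 0.0175 and 0.0161 in limma. In that fit 2.75% of all tested genes passed as lower and 2.43% as higher.

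Of 19 genes of coagulation initiation and control, 13 were tested, 4 higher and 9 lower and none past the threshold, with a median of -0.13, and -0.24 without the library labelled WT 3. Pros1, protein S, a cofactor that restrains coagulation, had 2722, 5071 and 2367 normalised reads in TSP2KO 1, 2 and 3, against 13920, 9523 and 5099 in WT (log2 fold change -1.46, SE 0.43, limma adjusted p = 0.315), and passed with the library labelled WT 3 left out (log2 fold change -1.85, adjusted p = 0.0370). Tfpi2, an inhibitor of plasmin and of the tissue factor complex, had 122, 198 and 110 in TSP2KO, against 242, 251 and 284 in WT (log2 fold change -0.89, SE 0.27, adjusted p = 0.318). F2rl1, a receptor cleaved by proteases, and F13a1, the A chain of the factor that crosslinks fibrin, had log2 fold changes of -1.71 and -2.01, also without overlap. These 4 coagulation genes were named for their small p, and 8.27% of all tested genes lay lower in TSP2KO without overlap. Without the library labelled WT 3 Tfpi2, F2rl1 and F13a1 had -0.83, -1.37 and -1.66, none past the threshold. F13a1 is made by macrophages, whose summed markers were lower in every TSP2KO library than in every WT library. Within WT, F13a1 was highest in the library labelled WT 3, at 735 normalised reads, where the summed macrophage markers were lowest, at 2797. The part of macrophages in the F13a1 difference was not tested.

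Of 18 plasmin substrates 15 were tested, 3 higher and 12 lower and none past the threshold, with a median log2 fold change of -0.47, and -1.01 without the library labelled WT 3. Mmp3, stromelysin 1, a proenzyme that plasmin activates, had 2217, 5983 and 125 normalised reads in TSP2KO 1, 2 and 3, against 37330, 10271 and 25721 in WT (log2 fold change -4.18, SE 1.32, limma adjusted p = 0.347). Mmp13, a collagenase, had 506, 808 and 155 in TSP2KO, against 10580, 5234 and 987 in WT (log2 fold change -3.25, SE 0.93, adjusted p = 0.304). Mmp10, stromelysin 2, and Hgf, hepatocyte growth factor, had log2 fold changes of -2.31 and -3.06. Of the 15 tested substrates 5 lay lower in all TSP2KO libraries than in any WT library, where 8.27% of tested genes did: these 4, which were named for their small p, and Lamc1, a laminin chain. With the library labelled WT 3 left out, Mmp13 passed as lower (log2 fold change -4.22, adjusted p = 0.0234), as did Igfbp5, a growth factor binding protein (-2.70, adjusted p = 0.0226). In that fit 2.75% of all tested genes passed as lower. Mmp3, Mmp10 and Hgf then had -4.05, -2.45 and -2.39, none past the threshold. Lamc1 and Igfbp5 were chosen after their values were seen.

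Of 24 other annexin and S100 genes 21 were tested, 14 higher and 7 lower and none past the threshold, with a median log2 fold change of 0.41, and 0.55 without the library labelled WT 3. S100a6 had 7693, 5439 and 9941 normalised reads in TSP2KO 1, 2 and 3, against 2147, 3014 and 5723 in WT 1, WT 2 and the library labelled WT 3 (log2 fold change 1.16, SE 0.39, limma adjusted p = 0.380). S100a4, which like S100a6 is a small calcium-binding protein, had 9897, 7484 and 13164 in TSP2KO, against 2607, 3008 and 8241 in WT (log2 fold change 1.31, SE 0.45, adjusted p = 0.400). S100a11 and S100a3 had log2 fold changes of 0.83 and 1.52. In these 4 genes, as in S100a10, the library labelled WT 3 lay above WT 1 and WT 2 and overlapped the TSP2KO range. When that library was left out, these 4 and Anxa3, chosen after its values were seen, passed as higher, where 2.43% of all tested genes did. The log2 fold changes were then 1.55, 1.82, 1.20, 2.24 and 2.03 for S100a6, S100a4, S100a11, S100a3 and Anxa3.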

How the data were processed

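The members and gene lists were chosen with earlier results of these data known. Poly(A) RNA was made into stranded libraries, per the labels' protocols. The authors deposited a normalised signal per gene, named as normalised counts. STAR, Partek and DESeq2 and the build mm10 are named without role, per the submitters' processing notes. Counting options remain not given in the sources used here. Low values lay on steps worth 1 read, but only 68.6% to 73.9% of values above 0 were whole multiples within 0.02 of a read, so no count test was run. Depth is each total divided by its step. With stops shortened by 1 base, 96.4% of genes had the coordinates of GENCODE M21.

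TSP2KO was compared with WT in limma 3.58.1 (R 4.3.3, trended variances, two-sided) on log2(value + 1), for genes with a mean of at least 10. Fold changes are on that scale, which understates those of low genes. The threshold was an adjusted p (Benjamini-Hochberg, all tested genes) under 0.05. Exon lengths are unions of GENCODE M21 exons. The fit was tested on simulated data. All members were named, and from each list the 4 genes of smallest p. A listed gene that is withheld is not reported here. Alternatives covered pseudocounts, filters, scaling (TMM without count weights, upper quartile), library weights, the replicate block and each library left out.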

Additional observations from a re-analysis of the deposited data

How the results depend on the processing

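Over all tested genes, 0 were called higher and 9 lower in limma. The lower count became 14 with a pseudocount of 10 and 8 with TMM scaling, and 0 with a pseudocount of 0.1, no filter, a mean of at least 100, upper quartile scaling or the replicate block. Library weights, which gave the library labelled WT 3 a weight of 0.26, called 853 higher and 1094 lower. Leaving out each library gave 0 to 357 higher and 0 to 404 lower, the highest counts without the library labelled WT 3 and 0 without any other. Among the 8 members, library weights called 2 higher (Plaur and S100a10, adjusted p = 0.0307 and 0.0414) and 1 lower (Plat, 0.00779), and leaving out each library gave 0 to 1 lower. With library weights the lists had 1 higher and 2 lower serpins and inhibitors, 1 lower among plasminogen receptors and upstream proteases, 1 higher and 4 lower partners of urokinase, 2 lower coagulation genes, 5 lower plasmin substrates and 7 higher annexin and S100 genes. Leaving out each library gave 0 to 1 higher and 0 to 1 lower, none lower, 0 to 1 higher and 0 to 3 lower, 0 to 1 lower, 0 to 2 lower and 0 to 5 higher in these lists.

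Plat kept its direction in all 14 alternatives, with log2 fold changes of -2.25 to -1.51 and adjusted p of 0.00779 to 0.652. Plaur, Serpine2, Anxa2 and S100a10 kept theirs as well. Plau reversed to -0.16 without WT 1 and -0.15 without WT 2, Serpinb2 to -0.56 without TSP2KO 1 and -1.28 without WT 2, and F3 to 0.34 with library weights, 0.22 without TSP2KO 3 and 0.11 without WT 1 (leaving out each library gave -0.16 to 0.97, -1.28 to 3.15 and -0.43 to 0.22 for these 3 genes); the cause was not tested. Plau had no value at a mean of at least 100. The labels do not say whether same-numbered libraries are paired. Deviations of same-numbered libraries from their group means correlated across genes at -0.42, -0.25 and -0.39. As each mean is over 3 libraries, these correlations constrain one another and cannot settle whether the libraries are paired. With the replicate block Plat had a log2 fold change of -1.75 (limma adjusted p = 0.182), and no member was called. Depth limits Plau, which rests on 15 to 64 reads, and Serpinb2, which rests on 10 reads in WT 2 and 16 in TSP2KO 3.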
